A study of Homo sapiens with 240 samples.

Results

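Sestrins, DDIT4 and the inhibitory partners of the kinase complex mTORC1 were followed at the RNA level in HEK 293T cells, a human embryonic kidney line, under energy stress. The members were the rows with the symbols SESN1, SESN2, SESN3, DDIT4, TSC1, TSC2, DEPTOR, RPTOR, MTOR and AKT1S1, which are 10 of the 27234 genes listed in each of 5 deposited tables. Every member was found in every table and reached 1 TPM (transcript abundance scaled by transcript length and library size) in at least 3 libraries of each.

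The 240 libraries of polyadenylated RNA form 80 groups of 3. Cells with AMPK knocked out and AMPK WT cells received 991 (a direct AMPK activator), CCCP (an uncoupler of mitochondrial respiration), phenformin or rotenone (both inhibitors of respiratory complex I) for 2, 4, 8 or 16 h. The other 4 pairs of arms received 991 only: FNIP1 knockout cells given back FNIP1 with 5 phosphosites changed to alanine (SA5) or WT FNIP1 for 2 to 16 h, and TFEB and TFE3 double knockout (DKO) cells and their WT, ESRRA knockout cells and their WT, and cells with siRNA against PGC1A (siPGC1A) and with control siRNA (siControl) for 2 to 24 h. Each arm has DMSO, the solvent, at 0 h only, so the effect of a compound and that of time in culture or handling cannot be told apart, and all times of an arm share its 3 DMSO libraries. Doses and the number of clones behind each knockout line are not in the labels, and the labels do not say whether the 3 libraries of a group are separate cultures. The p-values therefore measure only the spread between these libraries, which may be technical. RNA came from whole cultures, so fewer cells with a transcript and less of it per cell cannot be told apart.

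The targeted genes were checked in every library. PRKAA1, which encodes a catalytic AMPK subunit, was at 2.15 to 3.73 TPM in the AMPK knockout libraries and at 6.03 to 10.6 TPM in the AMPK WT libraries. PRKAA2, which encodes the other catalytic subunit, was at 2.55 to 4.87 TPM in the knockout and 3.77 to 7.40 TPM in the WT libraries, with overlap. PPARGC1A, which encodes PGC1A, was at 0.015 to 0.107 TPM in the siPGC1A libraries and at 0.254 to 0.484 TPM in the siControl libraries. ESRRA was at 4.44 to 8.46 TPM in its knockout and 8.01 to 12.7 TPM in its WT, and TFEB and TFE3 levels overlapped between DKO and WT. In the library labelled SA5 DMSO replicate 1, FNIP1 was at 5.47 TPM against 172.1 and 178.8 TPM in the other two, and in the library labelled SA5 991 8 h replicate 1 it was at 45.1 TPM against 179.1 and 183.8 TPM. These 2 libraries go against their label. They also had fewer genes at 1 TPM or more, 9834 and 11780, against 12036 to 12528 in the other libraries of their groups. Their listed TPM summed to 449208 and 427394, against 413234 to 416049 in those libraries. The cause was not tested, and results that rest on these 2 libraries are given with and without them. FNIP1 was also at 129.1 to 289.5 TPM in the ESRRA and PGC1A tables, where the labels do not mention it, and at 2.08 to 7.17 TPM in the AMPK and the TFEB and TFE3 tables. Markers of endothelial cells and keratinocytes stayed under 1 TPM in every library, and those of the HEK 293 line summed to 15.4 to 75.5 TPM.

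mTORC1 joins amino acid, growth factor and energy signals and drives protein synthesis and growth when it is active on the lysosome. Sestrins bind the GATOR2 complex and hold mTORC1 back when leucine is short. DDIT4, also called REDD1, acts through the TSC1 and TSC2 complex, which switches off the small GTPase RHEB, and DEPTOR and AKT1S1 (PRAS40) bind mTORC1 itself. AMPK is known to phosphorylate TSC2 and RPTOR, which acts on the protein and not on the transcript. SESN2 and DDIT4 are also known as stress genes, with ATF4 among their regulators.

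The promoters of DDIT4 and SESN2 are shown because the RNA of these 2 genes moved together in most of the comparisons that follow. Both are from RefSeq on GRCh38.p14, plus strand, 5′ to 3′, from 250 bases before the annotated start to the base before the first base of the deposited transcript. Capitals mark the hypoxia response cores ACGTG and GCGTG. DDIT4 is on chr10:72273674-72273918 and SESN2 on chr1:28259268-28259451.
DDIT4: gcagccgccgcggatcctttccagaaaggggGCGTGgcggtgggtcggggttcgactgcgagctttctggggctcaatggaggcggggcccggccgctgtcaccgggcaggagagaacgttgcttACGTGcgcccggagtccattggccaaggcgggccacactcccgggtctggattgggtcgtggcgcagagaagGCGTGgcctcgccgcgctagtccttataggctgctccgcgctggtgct
SESN2: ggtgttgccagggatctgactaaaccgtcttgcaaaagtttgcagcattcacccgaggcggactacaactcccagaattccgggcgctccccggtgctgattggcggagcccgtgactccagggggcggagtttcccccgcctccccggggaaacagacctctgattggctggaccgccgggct

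Promoter windows of 300 bases, 250 before and 50 after the start, were searched on both strands for 6 motifs. In the DDIT4 window ACGTG began at position -125 from the start and GCGTG at -219, -53 and 25, and 21.4% and 36.5% of all 35116 windows hold these letters. The composite element bound by ATF4 and CHOP (TGATGNAA, in 3.62% of windows), the E-box CACGTG (7.26%), the FOXO core GTAAACA (3.42%) and the p53 half-site (6.63%) were not in it. SESN2, SESN3 and TSC1 had no match of any of the 6. One of 3 SESN1 windows held a p53 half-site at position -49 and another held GCGTG at -82, and 1 TSC2 window held TGATGNAA and an E-box that contains ACGTG. RPTOR and MTOR windows held GCGTG. A match is a description of letters, not of binding, and 8 of the 10 members had a window.

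DDIT4 was the member that rose most often. This short stress protein is known to be induced by hypoxia, energy loss and glucocorticoids and to restrain mTORC1 through the TSC complex. Its transcript lies at chr10:72273919-72276039 on GRCh38, plus strand, and an antisense gene, DDIT4-AS1, overlaps 41.2% of its exon bases. The strand used for counting is not given in the sources used here, so reads of the gene and of its antisense partner may not be told apart. Of the 70 comparisons of a treated time with DMSO over all arms, DDIT4 was higher in 58 (limma with Benjamini-Hochberg adjustment over all genes, adjusted p under 0.05) and lower in none, and no other member reached this count. Of all tested genes, 3.31% to 45.3% were higher and 1.81% to 42.1% lower in these comparisons. In the AMPK arms it was higher in 32 of 32, where 4.28% to 45.3% of all tested genes were called higher per comparison.

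Phenformin gave the highest DDIT4 levels. At 16 h of phenformin the AMPK knockout libraries had 228.8, 232.8 and 234.5 TPM and their DMSO libraries 23.7, 34.5 and 38.3 TPM, a 7.21-fold ratio of means. At 16 h of phenformin the AMPK WT libraries had 220.8, 222.3 and 219.6 TPM and their DMSO libraries 18.97, 17.7 and 16.2 TPM, a 12.5-fold ratio. Treated libraries did not overlap those in DMSO in either arm, and the treated levels of the arms lay close together while the DMSO levels did not. On the log2(TPM + 1) scale the difference was 2.84 ± 0.15 in knockout cells (SE, limma adjusted p = 1.6e-28) and 3.58 ± 0.15 in WT cells (limma adjusted p = 1.7e-34). It was already 2.27 at 2 h in knockout cells and 2.85 in WT cells.

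CCCP and rotenone raised DDIT4 less. With CCCP for 16 h it had 171.3, 172.5 and 172.9 TPM in knockout cells and 141.5, 141.9 and 138.7 TPM in WT cells. With rotenone for 16 h it had 119.7, 123.9 and 117.9 TPM in knockout cells and 92.6, 106.5 and 104.6 TPM in WT cells. All of these libraries were above the DMSO libraries of their arm. The log2 differences from DMSO were 2.41 in knockout and 2.93 in WT cells for CCCP, and 1.90 in knockout and 2.45 in WT cells for rotenone (SE 0.15 each).

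With 991 the arms separated by time. In AMPK knockout cells DDIT4 had 23.7, 34.5 and 38.3 TPM in DMSO and 74.8, 114.4 and 96.4 TPM at 2 h, and at 4 h it had 69.3, 101.7 and 99.3 TPM. In AMPK WT cells it had 18.97, 17.7 and 16.2 TPM in DMSO, 26.9, 30.1 and 26.1 TPM at 2 h and 16.1, 36.3 and 30.4 TPM at 4 h. Every knockout library was above every WT library at each of these times. At 8 h the knockout libraries had 109.4, 119.1 and 130.4 TPM and the WT libraries 28.1, 57.1 and 54.4 TPM, of which replicate 1 lay well under the other two. At 16 h the knockout libraries had 140.9, 141.8 and 135.5 TPM and the WT libraries 87.4, 93.2 and 94 TPM.

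**Figure D1:**
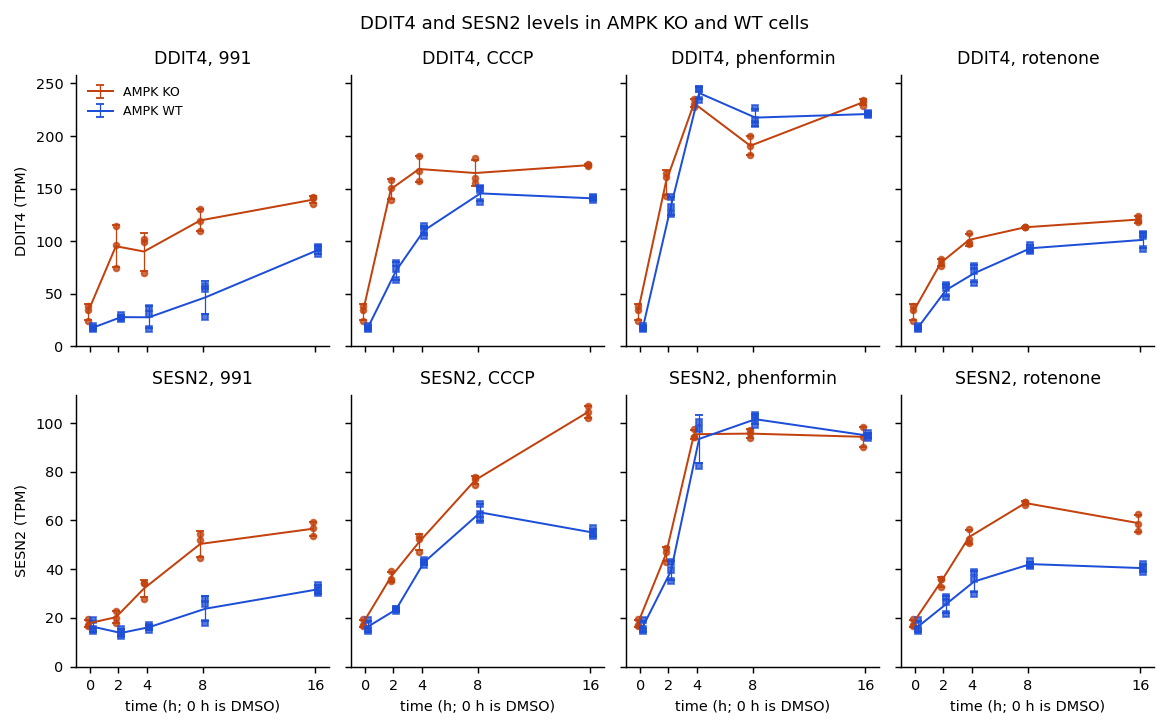
DDIT4 (top) and SESN2 (bottom) in TPM against hours of treatment in AMPK knockout (orange) and AMPK WT (blue) cells, one panel per compound, with DMSO at 0 h. Points are libraries, lines group means and bars the SD of 3 libraries. Phenformin brings DDIT4 to over 200 TPM in both arms at 16 h, while with 991 the WT line stays under the knockout line at every time.

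The 991 response of DDIT4, the log2 change from DMSO in knockout cells less that in WT cells, was 0.92 ± 0.21 at 2 h (SE, limma adjusted p = 0.0053), 0.92 ± 0.21 at 4 h (limma adjusted p = 0.0018), 0.60 ± 0.21 at 8 h (limma adjusted p = 0.033) and -0.20 ± 0.21 at 16 h (limma adjusted p = 0.57). Of all tested genes 3.01%, 12.1%, 21% and 15% were called in these 4 tests. The 3 early calls depended on which libraries were used: without replicate 1 the 8 h value was 0.09 (limma adjusted p = 0.58), and without replicate 2 or 3 the 2 h value was 0.89 or 1.05 and the 8 h value 0.84 or 0.87, none of them called. With only the groups compared in the fit, none of the 3 was called (limma adjusted p = 0.2, 0.27 and 0.28). The 4 h value without replicate 1 was 0.51 (limma adjusted p = 0.0014). In WT cells the rise itself, 0.62 at 2 h and 0.54 at 4 h, was not called without replicate 2 (0.57 and 0.32) or replicate 3 (0.61 and 0.38).

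The DDIT4 responses called with phenformin and CCCP were smaller in knockout than in WT cells. With phenformin the response was smaller by 0.87 at 4 h, 1.00 at 8 h and 0.74 at 16 h on the log2 scale (SE 0.21, limma adjusted p = 0.0095, 0.0017 and 0.011), where 3.4%, 4.49% and 13.9% of genes were called. With CCCP at 8 h it was smaller by 0.63 (limma adjusted p = 0.024, 21.4% of genes called), while the values at 2 h (0.25 ± 0.21, limma adjusted p = 0.51), 4 h (-0.20) and 16 h (-0.52) were not called. None of the 4 rotenone values, from -0.24 to -0.56, was called. The phenformin values were not called without replicate 2 (-0.82, -0.95 and -0.68) or replicate 3 (-0.68, -0.79 and -0.56), and the CCCP value was -0.54 and -0.47 there, also not called. With only the groups compared, the phenformin values at 4 and 8 h were not called (limma adjusted p = 0.13 and 0.081). In DMSO, which these values share, DDIT4 was higher in knockout than in WT cells by 0.81 ± 0.15 (SE, limma adjusted p = 7.5e-06).

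SESN2, a sestrin that senses leucine and is induced by stress, followed DDIT4. Its transcript is at chr1:28259452-28282491, plus strand. It was higher in 51 of the 70 comparisons with DMSO and lower in 6, beside 3.31% to 45.3% of all tested genes higher per comparison. With CCCP, phenformin and rotenone it was higher at every time in both AMPK arms. With phenformin it was near its highest level by 4 h. The knockout libraries had 94.4, 94.4 and 97.5 TPM and the WT libraries 82.4, 100.4 and 97.8 TPM, against DMSO libraries of 16.7 to 19.4 TPM in knockout and 14.5 to 19.02 TPM in WT cells. The 2 arms overlapped with phenformin at 4 h and both stood apart from DMSO. The ratio of means to DMSO was 5.4 in knockout and 5.72 in WT cells, and no phenformin response of SESN2 differed between the arms.

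With CCCP for 16 h SESN2 had 104.5, 106.9 and 102.2 TPM in AMPK knockout cells and 54.6, 56.8 and 53.8 TPM in AMPK WT cells, while the arms overlapped in DMSO. The knockout libraries were all near 100 TPM and the WT libraries all near 55 TPM. The rise from DMSO was 5.91-fold in knockout and 3.36-fold in WT cells, and the responses differed by 0.80 ± 0.13 on the log2 scale (SE, limma adjusted p = 1.5e-06), with 28.2% of genes called. At 2 h of CCCP the responses differed by 0.52 ± 0.13 (limma adjusted p = 0.0063, 8.61% of genes called), which was not called without replicate 2 (0.53) or replicate 3 (0.52). With rotenone they differed by 0.49 at 4 h and 0.55 at 8 h (limma adjusted p = 0.028 and 0.018), where 1.99% and 0.793% of genes were called, and neither was called without replicate 2 (0.53 and 0.57) or 3 (0.56 and 0.59). The differences at 4 and 8 h of CCCP and at 2 and 16 h of rotenone were not called.

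With 991 SESN2 had 27.9, 34.2 and 34.1 TPM at 4 h in knockout cells and 16.3, 17.1 and 15.1 TPM in WT cells. At 16 h it had 53.6, 59.4 and 56.8 TPM in knockout cells and 30.1, 33.5 and 31.5 TPM in WT cells. Knockout libraries were above WT libraries without overlap at both times, and in WT cells at 4 h they overlapped DMSO. The responses differed by 0.41 ± 0.13 at 2 h (SE, limma adjusted p = 0.064), 0.83 at 4 h (limma adjusted p = 6e-06), 0.96 at 8 h (limma adjusted p = 8.5e-08) and 0.71 at 16 h (limma adjusted p = 5.8e-05). The WT rise at 8 h, 0.50 on the log2 scale, was 0.79 without replicate 1, whose 17.9 TPM lay under the 27.6 and 25.8 TPM of the other two.

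The 4 compounds were compared within an arm and time, at doses that are not in the labels. Of 48 such pairs per gene over both AMPK arms, SESN2 was called in 42 and DDIT4 in 40, where 5.87% to 73.7% of all genes were called per pair, and SESN3 was called in 19, the fewest of the members. DDIT4 means in WT cells ran phenformin, CCCP, rotenone, 991 from high to low at each of the 4 times, and at 16 h these were 220.9, 140.7, 101.2 and 91.5 TPM. Rotenone and 991 at 16 h did not differ beyond their spread (0.14 ± 0.15, SE, limma adjusted p = 0.53). In knockout cells at 16 h the order was phenformin, CCCP, 991, rotenone with 232, 172.2, 139.4 and 120.5 TPM. There CCCP against 991 (0.30 ± 0.15, limma adjusted p = 0.081) and rotenone against 991 (-0.21 ± 0.15, limma adjusted p = 0.29) were not called. For SESN2 at 16 h phenformin led in WT cells with 94.9 TPM over CCCP with 55.1 TPM (CCCP lower by 0.77, limma adjusted p = 1.4e-11), and in knockout cells CCCP with 104.5 TPM and phenformin with 94.4 TPM were not called different (0.15 ± 0.09, limma adjusted p = 0.14).

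The other sestrins moved less and not in step with SESN2. SESN1 (chr6:108986437-109009555, minus strand), known as a p53 target, had 9.79, 9.61 and 9.54 TPM in knockout and 9.64, 9.23 and 9.66 TPM in WT cells at 2 h of CCCP, all under the DMSO libraries of 12.5 to 13.7 TPM in knockout and 11.7 to 14.6 TPM in WT cells. It fell by 0.38 in both arms. At 16 h of phenformin it had 22.4, 22.1 and 24.4 TPM in knockout and 21.5, 21.3 and 21.97 TPM in WT cells, all above DMSO, a rise of 0.79 ± 0.07 in knockout cells (SE, limma adjusted p = 1.8e-17) and 0.72 ± 0.07 in WT cells (limma adjusted p = 7.2e-16). With 991 for 16 h it was 0.17 above DMSO in knockout cells and 0.15 below it in WT cells, a difference of 0.32 ± 0.10 (limma adjusted p = 0.014) that was not called without replicate 2 (0.34) or 3 (0.37). Each of the changes in the separate arms was also lost in some leave-out: the WT value was -0.06 without replicate 1, and the knockout value was 0.14 without replicate 2 and 0.18 without replicate 3.

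SESN3 (chr11:95165513-95231082, minus strand), known as a FOXO target, fell more often than it rose. It was lower in 28 and higher in 5 of the 70 comparisons, where 1.81% to 42.1% of all tested genes were lower. With CCCP for 16 h it had 3.30, 3.88 and 3.82 TPM in knockout and 6.43, 5.80 and 5.81 TPM in WT cells. The DMSO libraries had 8.03, 5.49 and 6.09 TPM in knockout and 9.33, 7.08 and 7.44 TPM in WT cells, above the treated libraries in each arm. CCCP lowered it at each time in both arms, and at 16 h it fell by 0.68 ± 0.09 in knockout and by 0.34 ± 0.09 in WT cells. The difference between these, -0.34 ± 0.13 (limma adjusted p = 0.048), was not called without replicate 1 (-0.20), 2 (-0.42) or 3 (-0.38). With phenformin SESN3 turned round: it fell by 0.57 in knockout and by 0.44 in WT cells at 2 h, and at 16 h it was 0.57 above DMSO in knockout and 0.53 above it in WT cells (0.32 with quantile normalization), with 10.3, 10.3 and 9.64 TPM in knockout and 12.1, 11.8 and 11.7 TPM in WT cells.

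**Figure D2:**
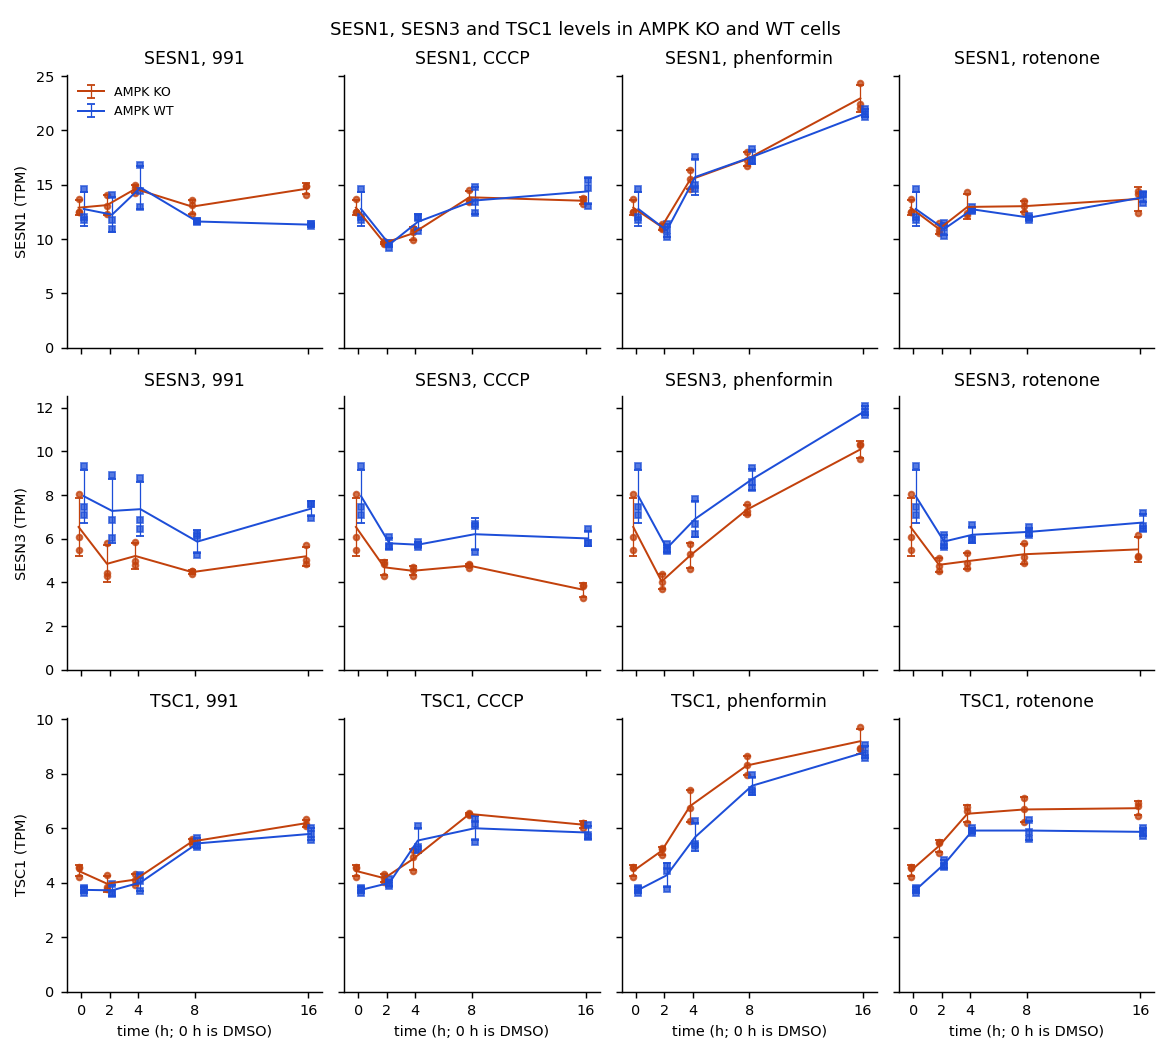
SESN1, SESN3 and TSC1 in TPM against hours of treatment in AMPK knockout (orange) and AMPK WT (blue) cells, one column per compound, with DMSO at 0 h. Points are libraries, lines group means and bars the SD of 3 libraries. Phenformin at 16 h holds the highest values of all 3 genes, and SESN3 with phenformin dips at 2 h before it climbs.

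The TSC subunits moved apart with phenformin. TSC1 (chr9:132891348-132944633, minus strand), the stabilizing subunit, rose at 16 h with every compound in both arms. With phenformin it had 9.73, 8.90 and 8.96 TPM in knockout cells and 9.05, 8.77 and 8.58 TPM in WT cells, against DMSO libraries of 4.20, 4.57 and 4.53 TPM in knockout cells and 3.77, 3.62 and 3.82 TPM in WT cells. No treated library overlapped DMSO, and the ratio of means was 2.08 in knockout and 2.36 in WT cells. The other compounds gave 0.39 to 0.51 in knockout and 0.52 to 0.54 in WT cells on the log2 scale (SE 0.05). TSC2 (chr16:2047895-2088720, plus strand), the subunit that acts on RHEB, fell at 16 h of phenformin by 0.24 ± 0.04 in both arms, with 25.3, 25.3 and 24.3 TPM in knockout cells and 20.4, 21.1 and 19.6 TPM in WT cells. In DMSO TSC2 had 29.5, 30.04 and 29.3 TPM in knockout cells and 25.3, 23.7 and 23.8 TPM in WT cells, without overlap between the arms (0.28 ± 0.04, SE, limma adjusted p = 4.6e-07). The TSC1 response to CCCP at 4 h was smaller in knockout than in WT cells by 0.36 ± 0.08 (limma adjusted p = 0.00018, 27.6% of genes called), while that of TSC2 to rotenone at 16 h, larger by 0.22 ± 0.06 (limma adjusted p = 0.044, 1.97% of genes called), was not called without replicate 1 (0.21), 2 (0.24) or 3 (0.21).

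The inhibitors that bind mTORC1 mostly went opposite ways in the AMPK arms. DEPTOR had the lowest mean level of the members in all 80 groups and rose in 25 of the 70 comparisons with none lower. Per comparison 3.31% to 45.3% of all tested genes were higher and 1.81% to 42.1% lower. In the AMPK arms DEPTOR rose in 6 of 8 comparisons with 991, 5 with CCCP, 7 with phenformin and 4 with rotenone. In the FNIP1 arms it rose in 2 of 8, both in SA5 cells, whose DMSO mean includes a library at 0.226 TPM. It rose in 1 of 10 in the ESRRA arms and in none in the TFEB and TFE3 or PGC1A arms. With phenformin for 16 h it had 4.53, 4.71 and 4.09 TPM in knockout cells and 4.81, 5.09 and 4.74 TPM in WT cells, against 1.62, 2.12 and 2.02 TPM in knockout DMSO and 1.73, 1.495 and 1.91 TPM in WT DMSO. No treated library overlapped DMSO, and the rise was 0.90 ± 0.08 in knockout (SE, limma adjusted p = 2.4e-16) and 1.12 ± 0.08 in WT cells (limma adjusted p = 8.3e-21). Its response to CCCP at 8 h was smaller in knockout cells by 0.55 ± 0.12 (limma adjusted p = 0.00023). AKT1S1 (chr19:49869033-49877387, minus strand), the member with the highest mean TPM in DMSO in both AMPK arms, was lower in 39 comparisons and higher in 2. With 991 for 16 h it had 53.6, 55.2 and 52.6 TPM in knockout cells and 48.3, 47.9 and 47.7 TPM in WT cells, all under the DMSO libraries of 59.5 to 65.5 TPM in knockout and 59.7 to 63.2 TPM in WT cells. Phenformin gave the 2 higher values, 0.25 in knockout and 0.12 in WT cells at 16 h, of which the WT value was not called without replicate 2 (0.12) or 3 (0.09) and was 0.02 with median-ratio scaling. With CCCP at 16 h its response differed by 0.22 ± 0.07 between knockout and WT cells (limma adjusted p = 0.017), or 0.17 and not called without replicate 2.

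RPTOR (chr17:80544825-80966373, plus strand), the scaffold of mTORC1, and MTOR (chr1:11106531-11262551, minus strand), the kinase, moved less than DDIT4 and SESN2 in the AMPK arms. RPTOR in knockout cells had 7.33, 8.54 and 7.87 TPM at 4 h of CCCP and 14.99, 14.7 and 13.8 TPM at 16 h, against 9.60, 11.4 and 10.4 TPM in DMSO. It was thus under DMSO at the earlier and above it at the later time without overlap, by -0.36 and 0.44 on the log2 scale (SE 0.06). The 4 h response differed from WT by -0.23 ± 0.08 (limma adjusted p = 0.029), but was not called without replicate 2 (-0.21) or 3 (-0.27) or with median-ratio scaling (-0.14). MTOR at 16 h of rotenone had 17.1, 17.1 and 16.9 TPM in knockout and 15.3, 14.5 and 14.6 TPM in WT cells, and rose by 0.30 in knockout and 0.25 in WT cells (SE 0.04).

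At 16 h the members called higher and lower were 8 and 2 of 10 with phenformin in knockout cells, where 78.8% of all genes were called, and 7 and 1 in WT cells, where 80.1% were. With 991 they were 7 and 2 in knockout (61.9% of genes called) and 6 and 3 in WT cells (68.8%), with CCCP 6 and 2 in knockout (68.9%) and 8 and 2 in WT cells (70.7%), and with rotenone 6 and 0 in knockout (63.2%) and 6 and 1 in WT cells (65.4%). With 6 to 10 of 10 members called, these counts are not far from the background. The median log2 change of the members with phenformin was 0.68 in knockout and 0.63 in WT cells, beside 0.01 and 0.07 for all genes tested.

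**Figure D3:**
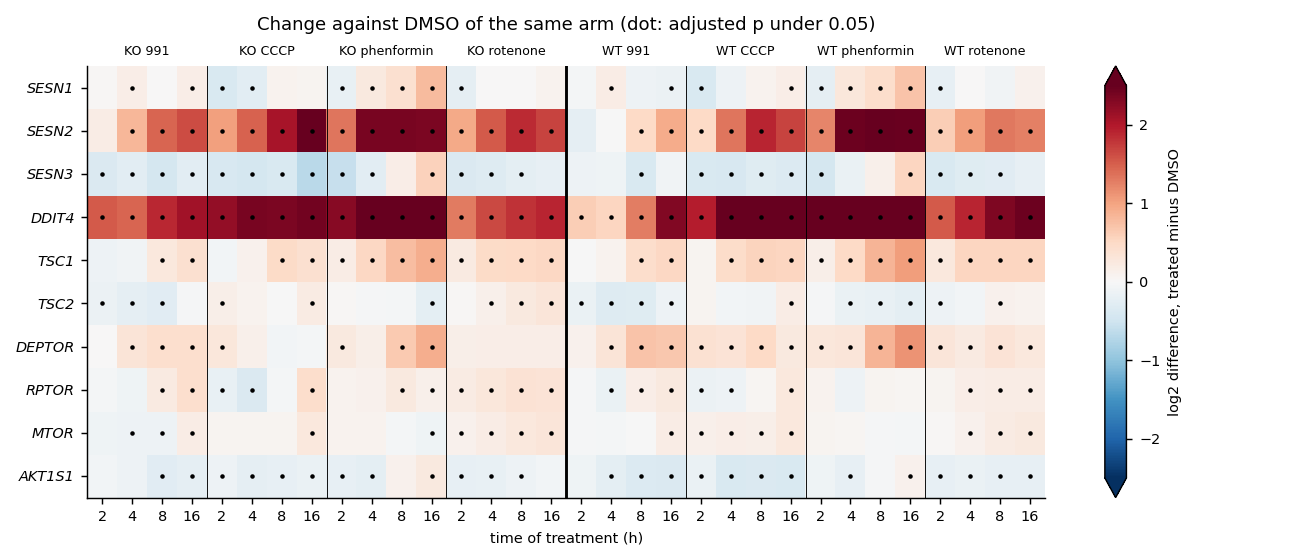
Log2 difference from DMSO of the same arm for the 10 members (down the side) at each time and compound, with the AMPK knockout columns left of the AMPK WT columns and colours limited to 2.5 either way. A dot marks an adjusted p under 0.05 by limma. DDIT4 and SESN2 hold nearly all the deep colours, TSC1 and DEPTOR stand out with phenformin, and AKT1S1 is pale or lower except with phenformin at 16 h.

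Under DMSO 4 members were higher and 1 lower in AMPK knockout than in WT cells, with 38.9% of genes called. Beside DDIT4 and TSC2 these were TSC1 (0.20 ± 0.05), MTOR (0.14 ± 0.04) and SESN3 (-0.25 ± 0.09). TSC1 was not called without replicate 2 (0.16), and MTOR without replicate 2 (0.10) or 3 (0.15), nor SESN3 without replicate 2 (-0.22) or 3 (-0.25).

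TFEB and TFE3 are transcription factors of lysosomal genes that mTORC1 holds in the cytoplasm. In DMSO 6 members were higher and 2 lower in DKO than in WT cells, with 51.3% of genes called, and each of the 8 calls held in every leave-out. The deletion and any other difference between the lines cannot be told apart. SESN2 had 29.7, 26.4 and 28.5 TPM in DKO and 15.98, 14.97 and 15.7 TPM in WT cells, without overlap (0.82 ± 0.06, SE, limma adjusted p = 1.8e-12). DDIT4 had 12.9, 17.8 and 14.9 TPM in DKO and 22.6, 23.1 and 23.8 TPM in WT cells, lower without overlap (-0.59 ± 0.11, limma adjusted p = 6.2e-05). DEPTOR had 1.57, 1.42 and 1.30 TPM in DKO and 3.00, 3.73 and 3.27 TPM in WT cells (-0.83 ± 0.12, limma adjusted p = 7.3e-07). MTOR had 19.03, 17.5 and 18.4 TPM in DKO and 10.4, 11.6 and 11.98 TPM in WT cells (0.65 ± 0.05, limma adjusted p = 5.4e-11), and TSC1 (0.55), TSC2 (0.43), AKT1S1 (0.31) and RPTOR (0.30) were also higher. SESN2 and DDIT4, which rose together with the compounds, thus differed in opposite directions between these arms. RPTOR and AKT1S1 were both 0.17 with median-ratio scaling, and RPTOR was 0.15 and not called with quantile normalization.

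**Figure D4:**
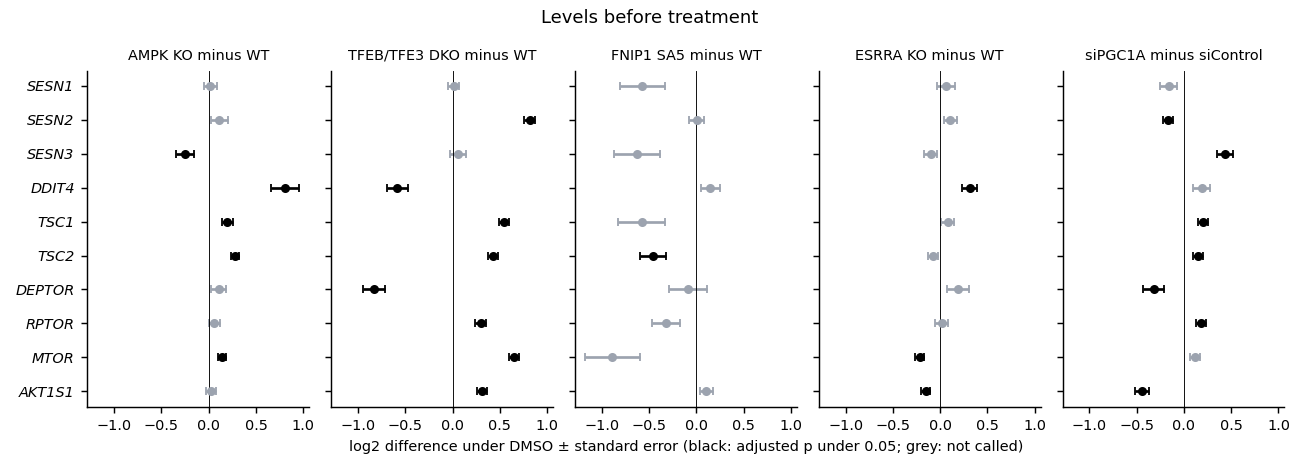
Log2 difference of each member between the arms under DMSO with its SE, altered arm minus its control arm, one panel per pair of arms. Black points passed an adjusted p under 0.05 by limma and grey points did not. The DKO panel holds SESN2 and MTOR on the high side and DEPTOR and DDIT4 on the low side, and the wide bars of the FNIP1 panel include the library labelled SA5 DMSO replicate 1.

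The 991 response of both stress-induced members was smaller in DKO than in WT cells. At 16 h DDIT4 had 46.02, 48.97 and 47.4 TPM in DKO and 120.4, 131.1 and 114.3 TPM in WT cells. SESN2 had 40.1, 44.2 and 43.4 TPM in DKO and 41.9, 42.4 and 40.7 TPM in WT cells. The DDIT4 levels stood far apart, while those of SESN2 overlapped at 16 h from unequal DMSO levels. The DDIT4 responses differed by -1.01, -0.76, -0.97, -0.76 and -0.45 at 2, 4, 8, 16 and 24 h (SE 0.16, limma adjusted p = 0.00097, 0.0053, 0.00019, 0.0019 and 0.049), and those of SESN2 by -0.45, -0.28, -0.62, -0.79 and -0.70 (SE 0.08, limma adjusted p = 0.0043, 0.041, 1.2e-05, 1.7e-07 and 1.3e-06). Of all genes 0.808%, 4.67%, 13.4%, 12.7% and 14.7% were called at these times. The DDIT4 values at 8 and 16 h and the SESN2 values at 8, 16 and 24 h were called in every leave-out. The DDIT4 value was not called at 2 h without replicate 1 (-1.09) or 3 (-0.99), at 4 h without replicate 1 (-0.76) or 3 (-0.90), or at 24 h without replicate 1 (-0.54), 2 (-0.29) or 3 (-0.53), and the SESN2 value was not called in any of the 3 leave-outs at 2 h (-0.42 to -0.50) or at 4 h (-0.25 to -0.33).

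Smaller responses in DKO cells were also called for TSC1 at 2 h (-0.38) and 24 h (-0.40), TSC2 at 24 h (-0.26), MTOR at 4, 16 and 24 h (-0.28, -0.28 and -0.37) and SESN1 at 8 h (-0.27). Each of these was lost in at least 1 leave-out: TSC1 at 2 h in all 3 (-0.31 to -0.42) and at 24 h without replicate 1 (-0.37) or 3 (-0.34), TSC2 without replicate 1 (-0.23) or 3 (-0.27), and SESN1 without replicate 2 (-0.18) or 3 (-0.25). MTOR was lost at 4 h in all 3 (-0.22 to -0.31), at 16 h without replicate 1 (-0.18) or 3 (-0.31) and at 24 h without replicate 1 (-0.29). SESN1 at 4 h rose in both arms, to 16.98, 16.3 and 16.1 TPM in DKO and 18.3, 17.8 and 19.1 TPM in WT cells, against 10.82 to 11.03 TPM in DKO DMSO and 10.2 to 11.9 TPM in WT DMSO. No member had a larger 991 response in DKO cells at any of the 5 times by limma, and the 22 member values of 50 with an unadjusted p under 0.05 were smaller in DKO cells. Of the values of all tested genes 23.5% were under this p, 10.2% larger and 13.3% smaller in DKO cells.

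In cells given FNIP1 with or without its AMPK sites, DDIT4 had 64.5, 60.7 and 64.03 TPM at 8 h of 991 in SA5 and 31.95, 33.4 and 31.97 TPM in WT FNIP1 cells, and at 16 h 62.2, 64.5 and 61.3 TPM in SA5 and 36.2, 35.5 and 37.5 TPM in WT FNIP1 cells. DMSO libraries overlapped, with 26.6, 31.9 and 32.4 TPM in SA5 and 27.5, 27.7 and 26.2 TPM in WT FNIP1 cells. The overlap came from the library labelled SA5 DMSO replicate 1, at 26.6 TPM. Without it the SA5 DMSO libraries were above those of WT FNIP1 cells. At 8 and 16 h every SA5 library was above every WT FNIP1 library. The responses differed by 0.79 ± 0.14 at 8 h (SE, limma adjusted p = 0.084) and 0.62 ± 0.14 at 16 h (limma adjusted p = 0.29), neither called. No member was called by limma at any of the 4 times, with at most 0.015% of genes called, while 6 of the 40 member values had an unadjusted p under 0.05 and were larger in SA5 cells. Of the values of all tested genes 5.02% were under this p, 4.13% larger and 0.894% smaller, and the median over all genes was 0.15 to 0.28 per time. Without the 2 libraries that go against their label 6 of 40 were under it, 5 larger and 1 smaller, beside 6.03% of the values of all genes, with medians within 0.03 of 0. Without the 2 libraries that go against their label, a choice made after seeing the data, the values for DDIT4 were 0.69 (limma adjusted p = 0.21) and 0.53 (limma adjusted p = 0.11), and SESN2 at 16 h was called with 0.44 ± 0.08 (limma adjusted p = 0.012) where it was 0.55 (limma adjusted p = 0.19) with them. SESN2 at 16 h had 40.3, 46.4 and 44.9 TPM in SA5 and 28.8, 28.2 and 31.7 TPM in WT FNIP1 cells.

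The library labelled SA5 DMSO replicate 1 set other FNIP1 values. It had 0.226 TPM of DEPTOR, 1.02 TPM of TSC1, 0.873 TPM of SESN3 and 4.18 TPM of MTOR and the fewest genes at 1 TPM or more of all 240 libraries, 9834. In DMSO TSC2 was the only member called between SA5 and WT FNIP1 cells (-0.46 ± 0.14, limma adjusted p = 0.039, 10.3% of genes called), and without both libraries the difference was -0.19 for TSC2 (limma adjusted p = 0.012) and -0.32 for MTOR (limma adjusted p = 6.1e-05). SESN1 at 4 h of 991 was 0.94 above DMSO in SA5 cells with these libraries and 0.45 without them, and in WT FNIP1 cells the 0.42 at 4 h was called only without them (limma adjusted p = 0.27 with and 3e-05 without). Neither library is in the WT FNIP1 arm, but both enter the spread shared by all groups of the fit. DDIT4 in SA5 cells rose by 1.04 at 8 h and 1.03 at 16 h with them and by 0.93 and 0.94 without them. Without these libraries DDIT4 was higher in 59 of the 70 comparisons with DMSO over all arms, SESN2 was higher in 52 and lower in 7, SESN3 was higher in 5 and lower in 30, DEPTOR was higher in 27 and AKT1S1 was higher in 2 and lower in 39. With median-ratio scaling the SA5 values of DDIT4 were 0.10 at 2 h and -0.08 at 4 h, so its direction at 4 h turned, and 0.68 at 8 h.

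**Figure D5:**
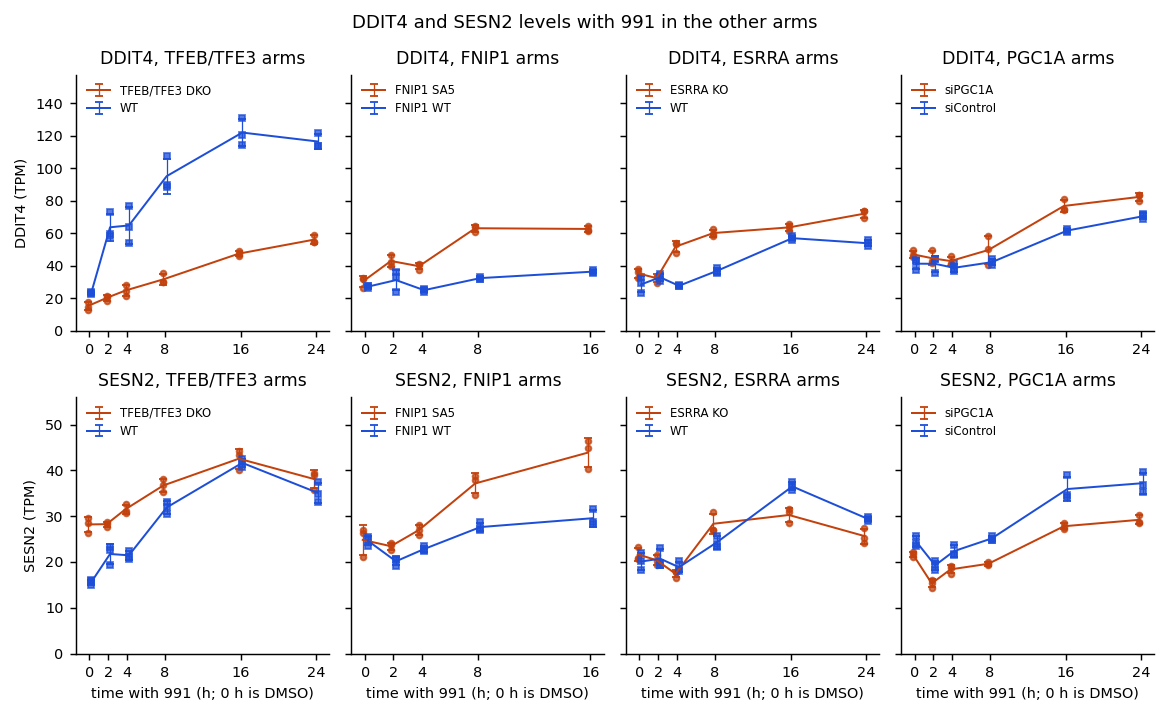
DDIT4 (top) and SESN2 (bottom) in TPM against hours of 991 for the FNIP1 arms, the TFEB and TFE3 arms, the ESRRA arms and the siRNA arms, with DMSO at 0 h, altered arm in orange and control arm in blue. Points are libraries, lines group means and bars the SD of 3 libraries, and each experiment was normalized on its own, so panels should not be compared in level. DKO cells stay under WT cells for DDIT4 at every time, and SA5 cells lie above WT FNIP1 cells at 8 and 16 h.

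ESRRA is an orphan nuclear receptor of mitochondrial genes. Under DMSO 1 was higher and 2 lower in knockout than in WT cells, with 21.5% of genes called: DDIT4 (0.31 ± 0.08, limma adjusted p = 0.0041), MTOR (-0.22 ± 0.05, limma adjusted p = 0.0029) and AKT1S1 (-0.15 ± 0.05, limma adjusted p = 0.022). DDIT4 was not called without replicate 3 (0.32), MTOR without replicate 1 (-0.16) and AKT1S1 without replicate 1 (-0.14) or 2 (-0.12). With 991 for 4 h DDIT4 had 53.97, 53.5 and 47.9 TPM in knockout and 27.5, 28.2 and 27.3 TPM in WT cells, against 32.3, 37.95 and 36.01 TPM in knockout DMSO and 23.3, 33.2 and 29.2 TPM in WT DMSO. Only the knockout libraries had left their DMSO range at 4 h, and the responses differed by 0.56 ± 0.11 (limma adjusted p = 0.0034, 4.62% of genes called), or 0.60 and not called without replicate 3. By 16 h DDIT4 had risen in both arms, by 0.83 in knockout and 0.99 in WT cells. SESN2 at 16 h had 31.5, 30.8 and 28.4 TPM in knockout and 35.7, 37.4 and 36.5 TPM in WT cells, a response smaller by 0.37 ± 0.10 in knockout cells (limma adjusted p = 0.033, 2.84% of genes called) that was not called without replicate 1 (-0.37) or 3 (-0.28).

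PGC1A is a coactivator of mitochondrial genes. Under DMSO 4 members were higher and 3 lower in siPGC1A than in siControl cells, with 24.2% of genes called. SESN3 had 3.72, 4.50 and 4.04 TPM in siPGC1A and 2.67, 3.01 and 2.57 TPM in siControl cells, higher without overlap (0.44 ± 0.09, SE, limma adjusted p = 0.0003). AKT1S1 had 30.8, 31.3 and 31.4 TPM in siPGC1A and 40.5, 46.9 and 41.4 TPM in siControl cells, lower without overlap (-0.45 ± 0.07, limma adjusted p = 2.7e-05). These 2 were called in every leave-out, and the other 5 were each lost in at least 1. SESN2 (-0.17) was lost without replicate 2 (-0.11) or 3 (-0.19), DEPTOR (-0.32) without replicate 1 (-0.21) or 3 (-0.32), TSC1 (0.20) without replicate 2 (0.21) or 3 (0.15), RPTOR (0.18) without replicate 1 (0.13) or 3 (0.17), and TSC2 (0.15) without any one of them (0.09 to 0.20). No member's 991 response differed between siPGC1A and siControl cells at any time by limma, with at most 0.201% of genes called, and 5 of the 50 member values had an unadjusted p under 0.05, of which 4 were smaller in siPGC1A cells, beside 8.11% of the values of all tested genes. SESN2 first fell by 0.47 in siPGC1A and by 0.33 in siControl cells at 2 h and was above DMSO at 16 h, by 0.35 in siPGC1A and 0.54 in siControl cells.

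Other genes of the pathway and of stress programmes were followed as lists. All 8 ATF4 and CHOP targets rose at 16 h of phenformin in both AMPK arms, with a median of 2.14 in knockout and 1.99 in WT cells, and 8 rose in knockout and 7 in WT cells with CCCP (medians 2.01 and 1.62). With 991 the count was 6 higher and 0 lower in knockout and 6 higher and 1 lower in WT cells. At 16 h of phenformin 78.8% of all genes in knockout and 80.1% in WT cells were called in either direction. With CCCP the shares were 68.9% and 70.7%, and with 991 61.9% and 68.8%. The list counts in either direction lie near or not far above these shares. For rises alone, 4.28% to 45.3% of all genes were called higher per AMPK comparison with DMSO. The medians of all genes were 0.01 in knockout and 0.07 in WT cells with phenformin, and 0.05 and 0.09 with CCCP. DDIT3, which encodes CHOP, rose by 4.25 and CHAC1, a glutathione-degrading enzyme, by 3.08 at 16 h of phenformin in WT cells, and CHAC1 by 1.91 with 991. Of the same list 4 members had a larger 16 h response to 991 in AMPK knockout than in WT cells and none a smaller one, where 15% of all genes were called, and 7 had a smaller one in DKO than in WT cells and none a larger one, where 12.7% were. DDIT3 was among these with -1.65.

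Of 10 p53 targets 8 were higher and 1 lower with phenformin in knockout cells, and 7 higher and 1 lower in WT cells, with medians of 0.79 and 0.72. These counts and those of the lists that follow stand beside the shares of all genes called at 16 h of phenformin. In either direction these were 78.8% in knockout and 80.1% in WT cells, with medians of 0.01 and 0.07. Taken in either direction, the list counts are near or under these shares or not far above them. For rises alone, 4.28% to 45.3% of all genes were called higher per AMPK comparison with DMSO. BBC3, which encodes the death protein PUMA, was higher by 2.86 in knockout and 2.66 in WT cells, and CDKN1A, the p21 cell cycle inhibitor, by 1.80 in knockout and 1.24 in WT cells. With the other compounds at 16 h this list had no more than 2 higher in either arm. Among the mTORC1 substrates, 7 of 10 were higher with phenformin in each arm, with EIF4EBP1, the translation repressor 4E-BP1, up by 1.66 in knockout and 1.5 in WT cells. Of GATOR2, to which sestrins bind, 2 of 5 were higher and 1 lower with phenformin in knockout cells and 1 higher and 2 lower in WT cells, where WDR24 fell by 1.38 in knockout and by 0.98 in WT cells and MIOS rose by 0.29 in knockout and 0.55 in WT cells.

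Among mTOR complex and TSC partners 5 of 11 rose and 3 fell with phenformin in knockout cells and 4 rose and 4 fell in WT cells. DDIT4L, the paralogue of DDIT4, fell by 1.01 in knockout and by 0.79 in WT cells, the opposite direction to DDIT4. Of 11 upstream insulin and energy signalling genes 7 rose and 1 fell in knockout and 8 rose and 1 fell in WT cells, with GRB10, an adaptor that mTORC1 stabilizes, up by 2.12 in knockout and 2.18 in WT cells and TRIB3, an AKT-binding pseudokinase, up by 1.68 in knockout and 2.47 in WT cells. Of 8 FOXO targets 4 rose and 2 fell with phenformin in each arm, and of 7 HIF targets 2 rose and 3 fell in each, among them VEGFA with a rise of 1.73 in knockout and 1.90 in WT cells and EGLN3 with a fall of 0.89 in knockout and 0.65 in WT cells.

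Across the 34 group means of the AMPK table, which share libraries' compounds, times and DMSO, the gene most like SESN2 was STC2 (Pearson r = 0.98), followed by HERPUD1 (0.97) and KATNA1 (0.95). For DDIT4 it was CHAC1 (0.96), then STC2 (0.93) and SESN2 (0.91). The nearest genes to the others were FBXW2 for SESN1 (0.91), MYLIP for SESN3 (0.92), SPOP for TSC1 (0.95), AP3D1 for TSC2 (0.95), ETV6 for DEPTOR (0.90), CWF19L1 for RPTOR (0.87), PRKDC for MTOR (0.91) and PITX1 for AKT1S1 (0.90). Between members the highest values were those of SESN2 with DDIT4, SESN2 with TSC1 (0.84) and TSC2 with MTOR (0.84), and the lowest was SESN3 with TSC2 (-0.61).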

How the data were processed

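Polyadenylated RNA of HEK 293T cells was measured. Per the submitters' processing notes, FastQC, STAR, HOMER and GRCh38 were used, without versions. The deposited values are TPM made by the authors, normalized separately in each of 5 tables, so levels were not tested across tables. TPM keep no read counts, so depth is unknown and precision was judged from the 3 libraries of a group. Listed TPM summed to 396341 to 449208 per library. Libraries were grouped by titles and label tags. For 6 AMPK WT libraries, phenformin 2 h and CCCP 4 h, the description and the opening words of the title name another compound or time, and the tags, which match the library name at the end of the title, were followed.

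A gene was tested in a table where 3 or more libraries reached 1 TPM. Values were taken as log2(TPM + 1) and fitted with 1 mean per group over all libraries of the table in limma 3.58.1 (R 4.3.3, moderated with a mean-variance trend). Fold changes on this scale understate those of low genes. Adjustment was by Benjamini-Hochberg over all genes in a comparison, with calls at an adjusted p under 0.05. The procedure was also run on simulated data, with independent noise in each library. These data held no replicate effect and no outlying library, so the run does not cover such effects. The members, lists and tests were chosen with earlier results of these data known. Named genes were the members, up to 2 rises and 2 falls of each list per comparison, the 3 genes most like each member, and the targeted genes. Promoters are from RefSeq, GRCh38.p14, and exon overlaps from GENCODE 29. Alternatives were a pseudocount of 0.1, no filter, median-ratio scaling, quantile normalization, only the groups compared, a replicate block, joint adjustment, and leaving out each replicate or the outlying FNIP1 libraries.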

Additional observations from a re-analysis of the deposited data

Results flagged for a closer look

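The responses of the altered and the control arm differed over the whole time course, by a moderated F statistic in limma at an adjusted p under 0.05, for the following numbers of the 10 members. With 991 in the AMPK arms it was 3 (SESN1, SESN2 and DDIT4), where 32.1% of all genes were called. With CCCP it was 6 (SESN2, DDIT4, TSC1, DEPTOR, RPTOR and AKT1S1), where 52% of genes were called. With phenformin it was 2 (DDIT4 and AKT1S1, 15.9% of genes), and with rotenone 1 (SESN2, 3.58% of genes). In the TFEB and TFE3 arms it was 6 (SESN1, SESN2, DDIT4, TSC1, TSC2 and MTOR, 26.8% of genes), and in the ESRRA arms 2 (SESN2 and DDIT4, 6.88% of genes). SESN2 was in 5 of these 6 and DDIT4 in 5 of 6. Leaving out a replicate number gave 2 to 4 members for 991, 2 to 6 for CCCP, 0 to 1 for phenformin and 0 to 2 for rotenone in the AMPK arms, 3 to 5 in the TFEB and TFE3 arms and 1 to 2 in the ESRRA arms.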

How the results depend on the processing

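Counts of called members were compared between settings. A pseudocount of 0.1 moved none of 40 counts by over 1.5 times and reversed none of 152 single values. These 152 were all called as reported, so calls gained under another setting are not among them. With only the groups compared, the counts were 2 for AMPK knockout against WT in DMSO (5 as reported), 8 for AMPK responses (21), 11 for TFEB and TFE3 responses (17), 1 for ESRRA in DMSO (3), 0 for ESRRA responses (2), 2 for siPGC1A in DMSO (7), 0 for the rotenone response over time (1), 9 for the WT FNIP1 course (2) and 0 for SA5 against WT FNIP1 in DMSO (1). That DMSO count was 0 with no filter and 2 with median-ratio scaling, 3 with quantile normalization, 2 with the replicate block, 0 without the library labelled SA5 DMSO replicate 1 and 2 without both outlying SA5 libraries. Without both, FNIP1 comparisons with DMSO gave 38 (19), responses 1 (0), the response over time 1 (0), the SA5 course 7 (3) and the WT FNIP1 course 9, and without the first alone the WT FNIP1 course gave 5. The WT FNIP1 arm holds neither outlying library, but its tests use a spread shared with them. Quantile normalization gave 5 for the SA5 and 4 for the WT FNIP1 course and 1 for the phenformin response over time (2), median-ratio scaling 1 for the WT FNIP1 course, no filter 1 for ESRRA responses, and joint adjustment 2 for the rotenone response over time.

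Among these single values, all at 16 h or in DMSO, 4 reversed, to values near 0: RPTOR at 16 h of phenformin in AMPK knockout cells (-0.0166, quantile, 0.13 as reported), RPTOR at 16 h of 991 in SA5 cells (-0.0381, median-ratio, and -0.0658, quantile, 0.39 as reported) and SESN3 at 16 h of 991 in siPGC1A cells (-0.0071, quantile, 0.22 as reported). Outside them DDIT4 at 4 h of 991 in SA5 cells was -0.08 with median-ratio scaling (0.38 as reported). Median-ratio scaling moved the median of all genes by -0.356 to 0.303 and by over 0.1 in 26 of 158 comparisons, and quantile normalization did so in 23. Of the 152 single values, 35 kept their direction but were no longer called with only the groups compared. This number was 27 with median-ratio scaling, 24 with quantile normalization, 10 with no filter and 7 with joint adjustment. Without replicate 1, 2 or 3 it was 22, 32 or 37, and with a pseudocount of 0.1 it was 2. The cause of these changes was not tested.

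Leaving out a replicate number gave, for comparisons with DMSO, 194 to 223 (231) in the AMPK arms, 9 to 33 (19) in the FNIP1 arms, 38 to 42 (50) in the TFEB and TFE3 arms, 35 to 38 (44) in the ESRRA arms and 29 to 30 (37) in the PGC1A arms. Between arms in DMSO it gave 2 to 5 (AMPK), 0 to 1 (FNIP1), 8 to 8 (TFEB and TFE3), 1 to 3 (ESRRA) and 2 to 4 (PGC1A). Responses gave 7 to 32 (AMPK), 6 to 11 (TFEB and TFE3), 0 to 3 (ESRRA) and 0 to 0 (FNIP1 and PGC1A), and compound pairs 241 to 298 (300). Courses gave 2 to 6 (SA5) and 0 to 8 (WT FNIP1). Responses over time gave 2 to 4 (991), 2 to 6 (CCCP), 0 to 1 (phenformin) and 0 to 2 (rotenone) in the AMPK arms, 3 to 5 (TFEB and TFE3) and 1 to 2 (ESRRA).

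Replicate numbers were not treated as pairs, since not every same-numbered pair correlated above 0.1. Of 1683 such pairs in the AMPK table, 582 did (mean 0.086, highest 0.693, mean of other pairs -0.042) and 75 libraries were closest to their own number, a hint from the data, and in the other tables the mean was 0.02 or less. The replicate block left 39 of 40 counts and 151 of 152 values on their side of the threshold. Depth is unknown in TPM, so low members such as DEPTOR are limited by an unknown counting error.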
